A study of Mus musculus with 6 samples.

Results

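Carboxylesterases of the Ces1 and Ces2 subfamilies were followed in a paclitaxel-sensitive mouse gastric adenocarcinoma line, MPC, and in its paclitaxel-resistant derivative, MPC-PTX. The set held 9 of the 21959 genes in the count table: Ces1d, Ces1e, Ces1f and Ces1g of the Ces1 subfamily, and Ces2a, Ces2b, Ces2c, Ces2e and Ces2g of the Ces2 subfamily. It was chosen because Ces1g and Ces1d were higher in MPC-PTX, so the fold changes of its members are given here as a description, and no p-value is given for them.

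Carboxylesterases are serine hydrolases of the endoplasmic reticulum lumen that split ester, amide and thioester bonds. They clear or activate many drugs, and they also release fatty acids from acylglycerols and cholesteryl esters. Liver and small intestine are the tissues best known for them, and in the mouse the family has expanded into tandem clusters of closely related genes.

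RNA was sequenced from 3 MPC libraries and 3 MPC-PTX libraries, all labelled CDH1-/-;Trp53-/- and all carrying batch number 1. Both lines descend from gastric organoids of C57BL/6 J mice with floxed Trp53 and Cdh1 and the Cre driver Mist1-CreER, which were treated with tamoxifen in culture and grown as a tumour under the skin of a BALB/c nude mouse. The MPC libraries are labelled control, and the MPC-PTX cells had been through more than 30 cycles of paclitaxel, a drug that stabilises microtubules. The comparison asks which genes differ between a sensitive line and its resistant derivative. Each line is the product of a monoclonal selection, and the labels do not say whether the 3 libraries of a line came from separate cultures. Differences between the lines therefore compare 1 selected line with another, and p-values measure only the spread between these libraries.

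Totals ran from 16574580 to 23148182 counts per library, and 1 CPM (counts per 1000000, on TMM-scaled totals) equalled 16.8 to 23.4 counts. The MPC libraries differed from each other more than the MPC-PTX libraries did, with a biological coefficient of variation of 17.9% against 3.01%. MPC replicate 3 stood apart, since its deviation from the MPC mean ran with GC content across genes (Spearman's rho -0.58 over 11776 genes, against 0.47 in MPC replicate 1), and results that rest on it are also given without it. Cdh1 had 2555 to 2812 counts in MPC and 2217 to 3068 in MPC-PTX, and Trp53 had 63 to 120 and 111 to 142, with adjusted p = 0.864 and 0.228. Counts over whole genes do not show whether the floxed exons were missing. The study itself reports a deleted exon of Cdh1 in the parental line by Sanger sequencing. It also reports that staining found the proteins of Cdh1 and Trp53 absent from that line. The gastric epithelium list was led by the keratin Krt19, at 2725 to 3195 CPM in MPC and 1525 to 1560 CPM in MPC-PTX, while the gastric markers Gkn2, Pgc, Tff1 and Tff2 had 0 counts in every library. Of its 25 genes 15 were tested, and 13 of them (86.7%) were lower and 1 (6.67%) was higher in MPC-PTX at an adjusted p below 0.05 (quasi-likelihood test of edgeR, Benjamini-Hochberg adjusted, as throughout). Over all genes tested, 15.6% were lower and 14.1% higher. The part of these gastric genes in the carboxylesterase values was not tested. In bulk RNA, fewer cells of a type and less RNA per cell cannot be told apart.

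The reaction of these enzymes rests on a serine at the turn of the nucleophile elbow, and the bases around it show how alike the members are. The windows of 57 coding bases were read from GENCODE M21 transcripts on GRCm38, each within 1 coding exon. Capitals mark the 5 codons with the catalytic serine in the middle.
Ces1d: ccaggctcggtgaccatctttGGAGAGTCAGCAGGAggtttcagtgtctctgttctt
Ces1e: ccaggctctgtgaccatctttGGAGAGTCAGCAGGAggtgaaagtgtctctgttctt
Ces1f: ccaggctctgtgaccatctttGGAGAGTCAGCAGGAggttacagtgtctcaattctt
Ces1g: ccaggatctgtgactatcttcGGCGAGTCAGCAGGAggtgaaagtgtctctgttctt
Ces2a: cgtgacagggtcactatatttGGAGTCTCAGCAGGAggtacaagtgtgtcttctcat
Ces2b: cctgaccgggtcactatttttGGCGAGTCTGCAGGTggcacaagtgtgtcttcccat
Ces2c: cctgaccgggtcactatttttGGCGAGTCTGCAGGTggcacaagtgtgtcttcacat
Ces2e: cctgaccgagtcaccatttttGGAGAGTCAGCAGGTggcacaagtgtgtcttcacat
Ces2g: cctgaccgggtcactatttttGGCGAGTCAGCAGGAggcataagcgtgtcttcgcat

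The windows of Ces1d, Ces1e, Ces1f and Ces1g start at bases 634, 637, 634 and 634 of coding sequences of 1695, 1686, 1683 and 1695 bases. The window of Ces1g lies at chr8:93328378-93328434 on the minus strand, and that of Ces2g at chr8:104964972-104965028 on the plus strand. Counted from 1 at the 5′ end of the capitals, Ces1d, Ces1e and Ces1f each differed from Ces1g by the single substitution C3A, and Ces2g did not differ from it. Ces2b and Ces2c both had A9T and A15T, and Ces2e had C3A and A15T. Ces2a stood apart with C3A, A5T and G6C, so that its codon before the serine was GTC.

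Over the whole coding sequence the subfamilies were clearly separate. Coding identity was 74.1% to 81.6% among the 4 Ces1 members and 81.3% to 91.3% among the 5 Ces2 members, against 53.1% to 56.4% between the subfamilies. The closest pair was Ces2b and Ces2c, at 91.3%, and the closest pair within Ces1 was Ces1d and Ces1g, at 81.6%. How reads that fit several genes were counted is not given in the sources used here, so exact sequence sharing was measured as well. Of all 100-base stretches of the Ces1d, Ces1e, Ces1f, Ces1g, Ces2e and Ces2g transcripts, 0% occurred in a transcript of another gene. The share was 0.09% for Ces2b, 8.13% for Ces2a (with Gm7208) and 13.6% for Ces2c (with Ces2d-ps, Gm8798 and Gm6831). Counts of Ces2a and Ces2c are therefore uncertain. At 50 bases the Ces1 shares were 0.90% to 2.97%, and that of Ces2c was 36.1%. The span of Ces1d also overlaps that of Gm45909 on the same strand. At 50 bases, stretches of Ces1d transcripts occurred in Ces1b, Ces1f and Ces1g but not in Gm45909. Shorter shared stretches were not measured.

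**Figure D1:**
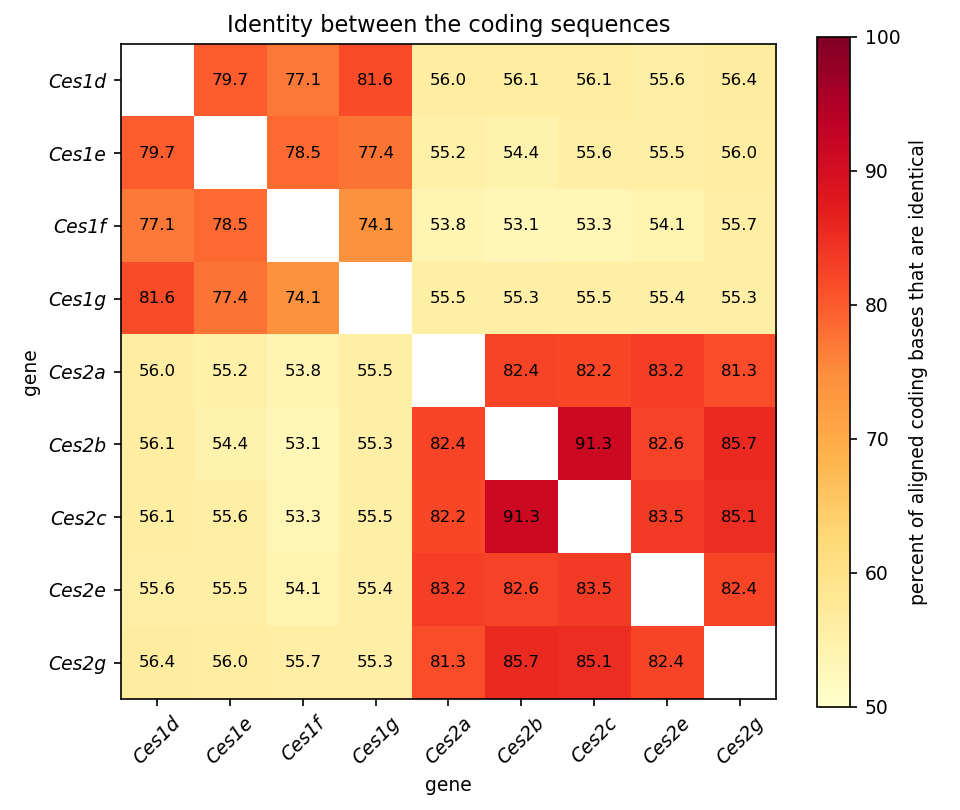
Percent of aligned coding bases that are identical for each pair of the 9 genes (colour scale from 50 to 100; diagonal left blank). Pairs within Ces1 and within Ces2 form 2 blocks at 74.1% or more, and all pairs between the subfamilies lie at 56.4% or below.

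Ces1g carried most of the carboxylesterase signal in MPC-PTX. The gene (ENSMUSG00000057074; GRCm38 chromosome 8, 93302369 to 93337308, minus strand) encodes a hepatic lipid and xenobiotic hydrolase. It had 7, 7 and 7 counts in the MPC libraries and 305, 316 and 235 in the MPC-PTX libraries. Its level went from 0.356 ± 0.0182 CPM (SD, n = 3) to 13.7 ± 0.637 CPM, with 13.0, 14.2 and 14.0 CPM in the separate MPC-PTX libraries. Every MPC-PTX library was far above every MPC library, and the spread within each line was small. The log2 fold change was 5.25 (standard error 0.15). The ratio of summed counts per total was 39.6, with an exact 95% interval of 25.7 to 64.3 that covers counting error only. That standard error is derived from the F statistic of the fit and is narrower than this counting interval implies. Among 11795 tested genes Ces1g ranked 9 by log2 fold change. By level it ranked 11663 in MPC and 8465 in MPC-PTX.

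Ces1d (ENSMUSG00000056973; 93166068 to 93197838, minus strand) encodes the triacylglycerol hydrolase of liver and adipose tissue. It had 0, 2 and 2 counts in MPC and 30, 11 and 27 in MPC-PTX. The mean level was 0.0664 ± 0.0576 CPM (SD, n = 3) in MPC and 1.13 ± 0.570 CPM in MPC-PTX. The lines did not overlap, but MPC-PTX replicate 2, at 0.496 CPM, was well below the other resistant libraries, at 1.28 and 1.60 CPM. The log2 fold change was 3.91 (standard error 0.77), and the count ratio was 16.5 (95% interval 6.16 to 62.3). The gene ranked 22 by log2 fold change.

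Both other Ces1 members were below the filter on low counts, which asks for about 10 counts in each of 3 libraries, and were not part of the fit. Ces1e (93201218 to 93229619, minus strand) encodes egasyn, the esterase that holds β-glucuronidase in the endoplasmic reticulum. It had 1, 1 and 0 counts in MPC and 15, 12 and 3 in MPC-PTX, a count ratio of 14.6 (95% interval 3.70 to 126). All resistant libraries were above the parental ones, although MPC-PTX replicate 3 was close to them. Ces1f (93256236 to 93279747, minus strand), a further hepatic lipid hydrolase, had 0 counts in all MPC libraries and 8, 7 and 8 in MPC-PTX. With the MPC group set to 3 counts in place of 0, the ratio was 7.44, which leaves out the counting error of MPC-PTX.

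Ces2g was the only Ces2 member above the filter. This gene (ENSMUSG00000031877; 104961718 to 104969537, plus strand) encodes a lipid-hydrolysing carboxylesterase. It had 1, 0 and 6 counts in MPC and 23, 16 and 20 in MPC-PTX. Its level was 0.114 ± 0.153 CPM (SD, n = 3) in MPC and 0.964 ± 0.234 CPM in MPC-PTX, with no overlap. The log2 fold change was 2.95 (standard error 0.69), the count ratio was 8.18 (95% interval 3.73 to 21.2), and the rank by log2 fold change was 50. Of the 7 MPC counts, 6 came from MPC replicate 3, and without that library the log2 fold change was 4.84.

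The remaining Ces2 members were at the limit of detection in both lines. Ces2c (104847068 to 104854483), an intestinal acylglycerol hydrolase, had 6, 0 and 1 counts in MPC and 2, 4 and 2 in MPC-PTX, a ratio of 1.11 (95% interval 0.352 to 3.59). Ces2a (104734003 to 104741634) had 1, 0 and 0 counts in MPC and 0, 1 and 4 in MPC-PTX, a ratio of 4.86 (95% interval 0.543 to 230). Ces2e (104926260 to 104934672) ran the other way, with 3, 2 and 1 counts in MPC and 0, 0 and 1 in MPC-PTX. Its ratio of MPC to MPC-PTX was 6.18 (95% interval 0.750 to 284). For these members the values of the lines overlapped and each interval included equal levels, so no difference was detectable at this depth. Ces2b (104831572 to 104840093) had 1 count in all, in MPC-PTX replicate 3, and no fold is given.

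**Figure D2:**
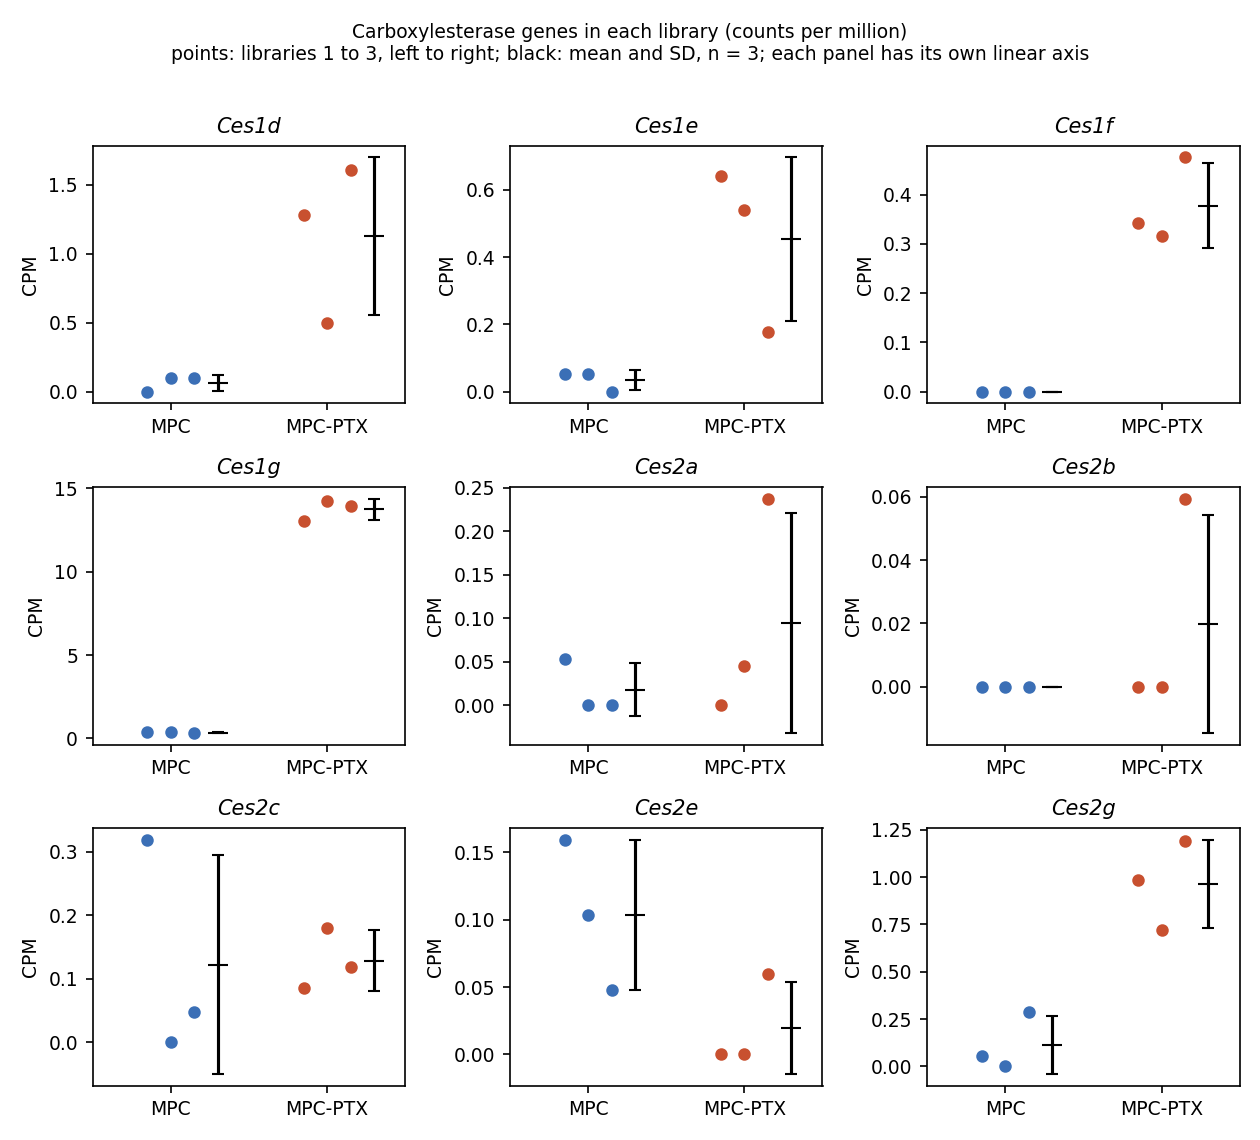
Level of each of the 9 genes in CPM (vertical axis, linear and different in each panel) in the 3 MPC (blue) and 3 MPC-PTX (red) libraries, with mean and SD in black. Ces1d, Ces1e, Ces1f, Ces1g and Ces2g have every MPC-PTX point above every MPC point, and Ces1g alone reaches 13.0 to 14.2 CPM.

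Of the 9 members 3 were in the fit over all genes, and all 3 lay below its adjusted p threshold of 0.05 as higher in MPC-PTX, which describes the values they were chosen on. The same fit called 29.7% of the 11795 tested genes, 14.1% as higher and 15.6% as lower. Every MPC-PTX library was above every MPC library for 5 members, and this held for 24.2% of the genes tested. The members were chosen on this contrast, and those with few counts passed the filter only through MPC-PTX. Nothing is therefore read from these shares, or from the ranks by log2 fold change and level given above. Leaving out MPC replicate 3 gave log2 fold changes of 5.15 for Ces1g and 4.19 for Ces1d. Without MPC-PTX replicate 1, Ces1d fell below the filter.

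Levels were compared between members only per kilobase of exon. In MPC-PTX, Ces1g came first at 5.76 ± 0.267 CPM per kilobase (SD, n = 3), followed by Ces1d at 0.476 ± 0.241, Ces2g at 0.270 ± 0.0655, Ces1e at 0.207 ± 0.111 and Ces1f at 0.115 ± 0.0261 CPM per kilobase. Ces2c stood at 0.0558 ± 0.0209 and Ces2a at 0.0399 ± 0.0535 CPM per kilobase, and Ces2e and Ces2b were last at 0.00734 and 0.00581. Only the steps from Ces1g to Ces1d and from Ces1f to Ces2c were larger than the SDs of the neighbours. In MPC, Ces1g was also first, at 0.149 ± 0.00763 CPM per kilobase. The next in MPC were Ces2c at 0.0532 ± 0.0748, Ces2e at 0.0384 ± 0.0206 and Ces2g at 0.0318 ± 0.0429 CPM per kilobase, which did not differ beyond their spread.

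Summed over a subfamily, the Ces1 members went from 0.458 ± 0.0503 CPM (SD, n = 3) in MPC to 15.7 ± 0.472 CPM in MPC-PTX, and the Ces2 members from 0.357 ± 0.242 to 1.23 ± 0.384 CPM. The ratios of these sums were 34.3 and 3.43. Since Ces1g was among the genes the set was chosen on, its share of the member counts is a description only. Ces1g gave 36.8%, 58.3% and 41.2% of the 19, 12 and 17 member counts in MPC, and 79.6%, 86.1% and 78.1% of the 383, 367 and 301 member counts in MPC-PTX. With so few counts, the exact 95% intervals of the MPC shares were wide. They were 16.3% to 61.6%, 27.7% to 84.8% and 18.4% to 67.1% for MPC replicates 1, 2 and 3. Those in MPC-PTX ran from 73.0% to 89.5% over the 3 libraries. These intervals cover counting error only, and no comparison between the lines is drawn from them. Within MPC-PTX, Ces1d had 9.84, 3.48 and 11.5 counts for every 100 counts of Ces1g, and Ces1e had 4.92, 3.80 and 1.28. The library that was lowest for Ces1d was thus not the one that was lowest for Ces1e.

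**Figure D3:**
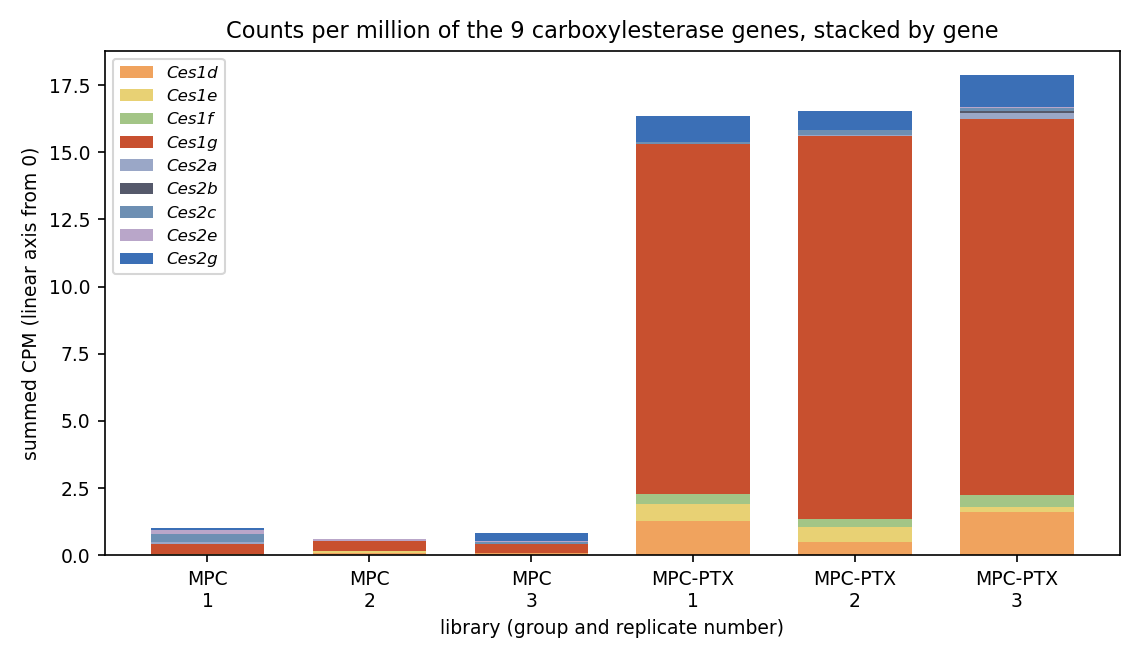
Summed CPM of the 9 genes in each of the 6 libraries, stacked by gene (linear axis from 0). Ces1g fills 78.1% to 86.1% of the member counts in the MPC-PTX libraries, and all MPC bars stay near the bottom of the axis.

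The rest of the family was close to silent. Of 10 other carboxylesterase genes in the table, 0 passed the filter. Ces1h had 0 counts in MPC and 1, 5 and 1 in MPC-PTX. With MPC set to 3 counts its ratio was 2.27, again without the counting error of MPC-PTX. Ces1a, Ces1c and Ces2f had 1 count each, all in MPC-PTX. Ces1b, Ces2h, Ces3a, Ces3b, Ces4a and Ces5a had 0 counts in all libraries.

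The listed markers of the tissues known for carboxylesterases were low in the same libraries. Outside these marker lists, the lipoprotein gene Apob and the nuclear receptor gene Hnf4a were at 76.3 and 65.6 CPM in MPC. In MPC-PTX they were at 1.28 and 0.944 CPM. Of 14 hepatocyte markers 0 passed the filter, their summed level was 0.850 to 1.55 CPM in MPC and 0.299 to 0.857 CPM in MPC-PTX, the highest over both lines was Apoa2, and Apoc3, Fga, Fgb, Serpina1a and Serpina1b were at 0. Of 10 enterocyte markers 0 passed, with summed levels of 1.12 to 1.83 and 0.857 to 1.20 CPM, led by Fabp2, and Apoa4 was at 0. The sum over 7 adipocyte markers was 1.59 to 1.83 CPM in MPC and 0.555 to 1.37 CPM in MPC-PTX, led over both lines by Fabp4, with Plin1 at 0. The list also holds Cidec, which was called lower and is given with the lipid genes. The bearing of these sums on the carboxylesterase levels was not tested. Fibroblast markers summed to 9.88 to 10.9 CPM and 8.63 to 10.0 CPM (highest over both lines Col1a1), leukocyte markers to 11.3 to 12.8 and 9.80 to 10.7 CPM (highest Cd68), and endothelial markers to 3.40 to 4.83 and 3.07 to 3.39 CPM (highest Kdr).

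Promoter sequences were available for 6 of the 9 members. Those of Ces1g, Ces2g and Ces1e are shown because these genes had every MPC-PTX library above every MPC library. Each run is the 250 bases before the RefSeq start on GRCm38.p6, with matches to the searched motifs in capitals. They lie at chr8:93337210-93337459 (minus strand), chr8:104961468-104961717 (plus strand) and chr8:93229620-93229869 (minus strand).
Ces1g: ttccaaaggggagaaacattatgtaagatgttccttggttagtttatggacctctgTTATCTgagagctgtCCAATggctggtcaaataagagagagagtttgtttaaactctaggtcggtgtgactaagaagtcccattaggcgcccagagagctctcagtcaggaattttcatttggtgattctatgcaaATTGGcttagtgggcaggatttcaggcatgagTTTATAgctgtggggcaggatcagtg
Ces2g: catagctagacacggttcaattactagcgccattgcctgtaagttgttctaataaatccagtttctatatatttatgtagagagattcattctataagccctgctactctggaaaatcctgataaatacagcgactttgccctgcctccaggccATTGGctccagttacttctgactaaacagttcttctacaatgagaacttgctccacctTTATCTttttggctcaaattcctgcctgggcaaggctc
Ces1e: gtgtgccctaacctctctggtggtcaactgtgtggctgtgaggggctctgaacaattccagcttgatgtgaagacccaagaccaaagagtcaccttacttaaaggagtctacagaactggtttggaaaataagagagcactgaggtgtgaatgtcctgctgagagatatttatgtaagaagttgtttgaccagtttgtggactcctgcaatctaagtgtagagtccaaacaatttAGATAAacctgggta

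Motifs were searched on both strands. Spelled out, the TATA motif was TATAAA. The GC motif read GGGCGG, whatever stood beside it. TGACNNNGC served as the core of the antioxidant response element. Nuclear receptor half-sites were searched as AGGTCA. The GATA motif was spelled AGATAA, and the CCAAT motif was searched by the letters of its name. Ces1g matched the TATA motif on the opposite strand 26 bases before its RefSeq start, the CCAAT motif at 179 and 58 bases, and the GATA motif at 194 bases. GENCODE M21 places the Ces1g start at 93337308, within the run shown. The matches of Ces1g at 26 and 58 bases therefore lie inside the gene as annotated there. Ces2g matched the CCAAT motif at 96 bases and the GATA motif at 38 bases, and Ces1e matched the GATA motif at 15 bases. Among 32851 mouse promoters of the same length, 12.4% matched the TATA motif, 33.8% the CCAAT motif, 32.7% the GC motif, 10.2% the antioxidant response core, 14.0% the half-site and 10.0% the GATA motif. A match is a description of the letters, not evidence of binding.

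The genes whose pattern over the 6 libraries was nearest to Ces1g were Eif5a2, a translation factor (distance 0.816), Sod3, the extracellular superoxide dismutase (0.968), Casd1, a sialic acid O-acetyltransferase (0.990), and Sulf2, a heparan sulfate endosulfatase (1.11). The distance is Euclidean, between log2 CPM values centred on each gene's own mean, and its median over all tested genes was 5.98. Their levels in MPC-PTX were 3.72 ± 0.412, 27.6 ± 0.305, 6.78 ± 0.680 and 2.64 ± 0.137 CPM (SD, n = 3), against 0.567 CPM or less in MPC. Nearest to Ces1d were Ncald (0.927), Tdpoz8 (1.09), the NADPH oxidase subunit Ncf1 (1.12) and the intermediate filament gene Vim (1.13), with a median distance of 3.70. Vim stood at 0.454 ± 0.118 CPM in MPC and 3.98 ± 0.137 CPM in MPC-PTX. None of these 8 genes lies on chromosome 8. The values were not scaled to each gene's spread, so the distance favours genes with a change of like size between the lines. Ces1g and Ces1d were chosen on that change, and nothing more is read from these neighbours.

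All members lie on chromosome 8, in 2 clusters, and the share of its genes called higher was the largest of any chromosome. Of 660 tested genes of chromosome 8 that are not carboxylesterases, 256 (38.8%) were higher in MPC-PTX and 34 (5.15%) were lower. Their median log2 fold change was 0.26, against 0.04 over all genes tested. With the 3 members included, chromosome 8 ranked 1 among the 20 chromosomes by the median and by the share called higher (39.1%), and chromosomes 18 and 4 followed by share with 24.1% and 23.0%. The median stayed between 0.20 and 0.30 under every setting tried, and the count called higher fell to 128 without MPC replicate 2 and to between 116 and 118 without any one MPC-PTX replicate. The count called lower was 54 without MPC replicate 3 and 22 without MPC-PTX replicate 2. The study's methods call genes at an absolute log2 fold change above 1 and a p-value below 0.05. By that rule, applied to the fit used here, 27 were higher and 16 lower. The median of 0.26 lies below that cutoff, so these counts are not of like kind with those above. The members' log2 fold changes of 2.95 to 5.25 were well above this median. Its part in them was not tested.

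Within 1 Mb of the Ces1 members, 5 of 7 tested genes (71.4%) were higher and 1 (14.3%) was lower. Their median log2 fold change was 0.31, against 0.26 for chromosome 8. On chromosome 8, 38.8% were higher and 5.15% lower, and over all genes tested 14.1% and 15.6%. With 7 genes, nothing is read from this share. The largest changes there were in Ogfod1, a prolyl hydroxylase of a ribosomal protein (log2 fold change 0.70, standard error 0.07, adjusted p = 0.000458), and Irx5, a homeobox gene (0.54, adjusted p = 0.00754). The call of Irx5 was lost with a correction for GC content and length (adjusted p = 0.0557). Without MPC replicate 2 or MPC-PTX replicate 1, 3 of the genes beside Ces1 were called higher, and without MPC-PTX replicate 2 or 3, 2 were.

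Within 1 Mb of the Ces2 members, 6 of 43 tested genes (14%) were higher and 0 were lower, with a median of 0.15. This share was close to the 14.1% over all genes tested. These were led by Tppp3, a tubulin-binding protein gene (log2 fold change 1.03, adjusted p = 0.0379), Exoc3l (0.75, adjusted p = 0.0203) and Pdp2, a pyruvate dehydrogenase phosphatase subunit (0.66, adjusted p = 0.00358). The call of Tppp3 was lost in 9 of 13 other settings (adjusted p up to 0.151), and that of Exoc3l in 3 (up to 0.0811). The count of higher genes was 10 without MPC replicate 1 or MPC replicate 3, and 1 or 2 without MPC replicate 2 or any one MPC-PTX replicate.

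**Figure D4:**
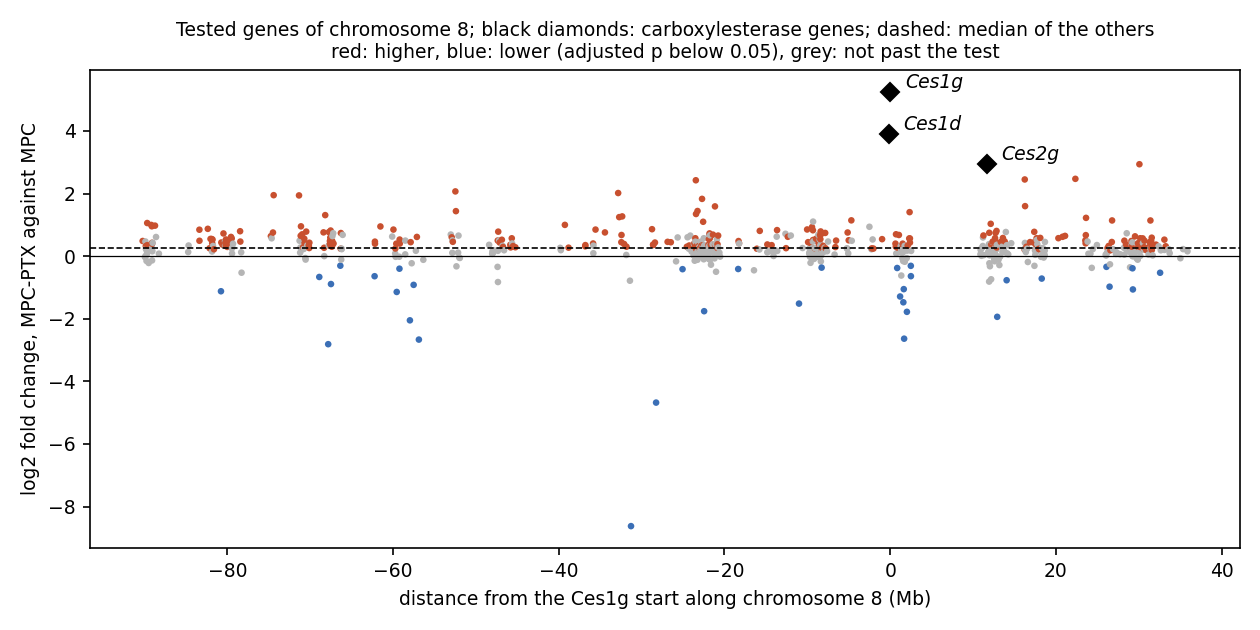
Log2 fold change (MPC-PTX against MPC) of each tested gene of chromosome 8 against its distance in Mb from the Ces1g start, with called genes in red (higher) or blue (lower). The 3 tested carboxylesterases (black diamonds) lie at 2.95 to 5.25, above the dashed median of the other genes at 0.26.

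Genes that share the work of the carboxylesterases did not move in 1 direction. Of 43 tested ester hydrolases outside the family, 9 (20.9%) were higher and 4 (9.3%) were lower in MPC-PTX, against 14.1% and 15.6% of all genes. The acyl-CoA thioesterase Acot1 went from 0.646 ± 0.0870 to 4.52 ± 0.662 CPM (SD, n = 3; log2 fold change 2.80, standard error 0.22, adjusted p = 0.000159), and its close copy Acot2 rose as well (1.05, adjusted p = 0.00282). Acot1, Acot2, Gstm2, Ugt2b34 and Tdpoz8 belong to families of near-identical copies, so their counts may hold reads of their relatives. Notum, which removes the lipid from Wnt proteins, was higher too (0.93, adjusted p = 0.0201), a call lost without MPC replicate 2 or any one MPC-PTX replicate (adjusted p up to 0.0879). Cmbl, a hydrolase that activates ester prodrugs, fell by 1.30 on the log2 scale (adjusted p = 0.000153). The count of higher genes was 5 without MPC replicate 2 or any one MPC-PTX replicate, and 8 genes were lower without MPC replicate 3.

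Among 47 tested enzymes of drug metabolism outside the family, 13 (27.7%) were lower and 6 (12.8%) were higher, against 15.6% and 14.1% of all genes. Their median log2 fold change was -0.11, against 0.04 over all genes tested. The cytochrome P450 gene Cyp3a13 went from 21.7 ± 1.84 to 3.91 ± 0.237 CPM (SD, n = 3; log2 fold change -2.47, standard error 0.12, adjusted p = 2.24e-05). The glutathione transferases Gstm2 (-2.35, adjusted p = 1.49e-05) and Gsto1 (-1.52, adjusted p = 2.73e-05) and the glucuronosyltransferase Ugt2b34 (-2.01, adjusted p = 0.00198) also fell. Gsto1 was abundant, at 775.3 ± 61.1 CPM in MPC and 270.1 ± 8.49 CPM in MPC-PTX. Without MPC replicate 3, 24 genes were lower, while the lower genes over all tested also went from 1841 to 3227.

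Among 25 tested genes of acylglycerol and sterol ester synthesis and packing, which make or store what carboxylesterases split, 7 (28%) were lower and 6 (24%) were higher. The shares over all genes tested were 15.6% and 14.1%. The largest changes were downward. Apob, the structural protein of triglyceride-rich lipoproteins, went from 76.3 ± 42.3 to 1.28 ± 0.260 CPM (SD, n = 3; log2 fold change -5.92, standard error 0.51, adjusted p = 0.000369). The lipid droplet gene Cidec (-4.28, adjusted p = 0.00241), the monoacylglycerol acyltransferase gene Mogat2 (-2.16, adjusted p = 0.00243) and the cholesterol acyltransferase gene Soat1 (-1.64, adjusted p = 0.000179) fell with it. The count of higher genes was 3 without MPC replicate 2, MPC-PTX replicate 1 or MPC-PTX replicate 3.

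Of 25 tested regulators of liver and xenobiotic genes, 8 (32%) were lower and 1 (4%) was higher, against 15.6% and 14.1% of all genes. Hnf4a, the nuclear receptor that drives many hepatic and gut genes, went from 65.6 ± 14.2 CPM (SD, n = 3) in MPC to 0.944 ± 0.0845 CPM in MPC-PTX (log2 fold change -6.11, standard error 0.23, adjusted p = 9.23e-06). Foxa3 (-3.09, adjusted p = 0.000758), Gata6 (-2.65, adjusted p = 0.000120) and Cdx2 (-1.06, adjusted p = 0.00155), all transcription factors of the gut endoderm, fell in the same direction. The count of lower regulators was 5 without MPC replicate 2 or any one MPC-PTX replicate, and 13 without MPC replicate 3.

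Of 8 genes for retention in the endoplasmic reticulum and for the egasyn partner, 3 (37.5%) were higher and 0 were lower. Over all genes tested, 14.1% were higher and 15.6% lower. Kdelr3, a receptor that returns resident proteins to the endoplasmic reticulum, went from 6.91 ± 1.25 to 17.5 ± 1.18 CPM (SD, n = 3; log2 fold change 1.34, standard error 0.14, adjusted p = 0.000696). The cargo lectin gene Lman1 (0.48, adjusted p = 0.00720) and the β-glucuronidase gene Gusb (0.35, adjusted p = 0.00792) rose less. Gusb, the partner of egasyn, was at 145.8 ± 9.72 CPM in MPC and 185.8 ± 2.88 CPM in MPC-PTX, while Ces1e itself had at most 15 counts in any library. Without MPC replicate 1 and without MPC replicate 3, 1 and 2 genes of this list were called lower.

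**Figure D5:**
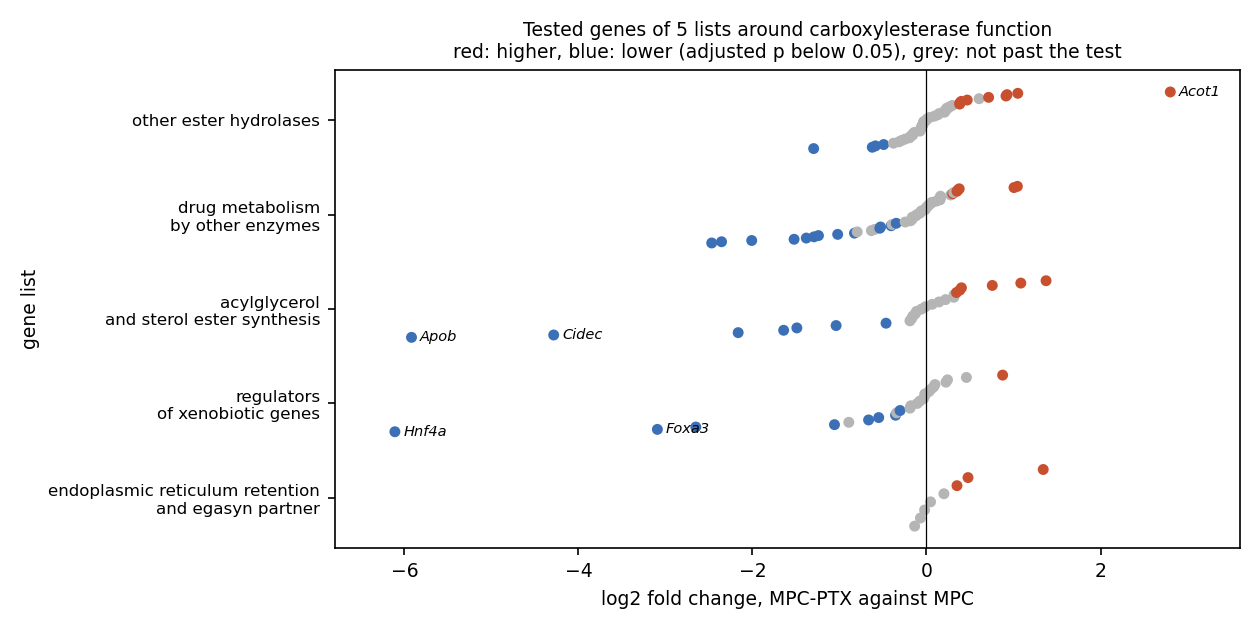
Log2 fold change (MPC-PTX against MPC) of the tested genes of 5 lists, with called genes in red (higher) or blue (lower) and the others in grey. Hnf4a at -6.11 and Apob at -5.92 lie farthest to the left, and Acot1 at 2.80 lies farthest to the right.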

How the data were processed

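Poly-A selected libraries of 3 MPC and 3 MPC-PTX samples were analysed. Per the labels and the study's methods, the authors filtered reads with fastp 0.22.0 and mapped them with HISAT2 2.1.0, and the deposited files hold raw read counts per gene. Which genome release, annotation and counter were used, and how strand and multiply mapped reads were treated, is not given in the sources used here. The library protocol marks no strand. Counts in the 6 sample tables equalled those of the joint table. Rows with no gene symbol (51) took 0.0241% of the counts.

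Counts were tested with edgeR 4.0.16 in R 4.3.3 (TMM, filterByExpr with a minimum count of 10, robust quasi-likelihood test, Benjamini-Hochberg adjustment over 11795 genes, called below 0.05). Count ratios have exact binomial (Clopper-Pearson) 95% intervals, which cover counting error only, since no molecular identifiers were used. A group at 0 was set to 3 counts, and such ratios have no interval. Gene positions, exon lengths and transcript sequences came from GENCODE M21 by Ensembl ID, and coding identity from Biopython 1.88 alignments. Alternatives were DESeq2 1.42.0, other size factors and filters, a replicate block, a loess correction for GC content and length, each library left out, and the call rule of the study's methods. That rule asks for an absolute log2 fold change above 1 and a p-value below 0.05. The settings for chromosome 8 were added after the data were seen.

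The members and the gene lists were chosen with earlier results of these data known. Genes were named by rule: all members, every other carboxylesterase with a count, the 4 called genes of each pathway list and the 3 called genes beside each cluster with the largest absolute log2 fold change, the 4 genes nearest to Ces1g and to Ces1d, Cdh1 and Trp53, and the highest marker of each cell type. Items of these rules that are withheld are not reported here.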

Additional observations from a re-analysis of the deposited data

How the results depend on the processing

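Ces1g, Ces1d and Ces2g were higher in MPC-PTX in every fit that held them. They have under 10 counts in MPC, so a filter of 10 counts in every library gave them no value. Leaving out 1 library at a time gave log2 fold changes of 5.15 to 5.28 for Ces1g, 3.39 to 4.30 for Ces1d and 2.40 to 4.84 for Ces2g, and ratios of summed CPM of 32.2 to 36.6 for Ces1 and 2.53 to 5.03 for Ces2. The same gave 803 to 3020 genes higher and 1077 to 3227 lower, 14 to 31 genes of the 5 pathway lists higher and 25 to 56 lower (24 and 32 with all libraries), 2 to 5 genes beside Ces1 higher and 0 to 1 lower, and 1 to 10 beside Ces2 higher and 0 to 4 lower. For all genes, the counts fell without MPC replicate 2 or any one MPC-PTX replicate and were highest without MPC replicate 3. Scaling by library size alone gave 10 genes higher beside Ces2, and turned the log2 fold change of Cdh1 from -0.01 to 0.024, neither of them called. A correction for GC content and length gave 3 higher beside Ces1 and 13 beside Ces2. The rule of the study's methods has a cutoff of 1 on the absolute log2 fold change. It gave 445 genes higher and 512 lower, 7 and 19 in the pathway lists, 0 and 0 beside Ces1, and 1 higher beside Ces2. Of 140 counts for single lists under these settings, 109 stayed within 1.5 times the main count. The causes were not tested.

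The replicate numbers were not shown to pair the libraries. Deviations from the line means correlated at 0.15, -0.02 and 0.17 for numbers 1, 2 and 3, and MPC replicate 2 correlated best with MPC-PTX replicate 1 (0.15). With the replicate block, 1787 genes were higher and 1717 lower, and the log2 fold changes were 5.25 for Ces1g, 3.93 for Ces1d and 3.05 for Ces2g. Depth limits the 6 members under the filter to their counts.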
